A study of Mus musculus with 9 samples.

Results

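The genes described here carry pyruvate into the mitochondrion's central oxidative pathway: the alpha subunit of pyruvate dehydrogenase (Pdha1), the phosphatase that switches it on (Pdp1), and the tricarboxylic acid (TCA) cycle enzymes Cs, Idh2, Idh3a, Ogdh, Sdha, Fh1 and Mdh2. They were chosen by name as rows of the gene count table, 9 of 35275 genes, and all 9 passed the filter on low counts. Messenger RNA selected by its poly-A tail came from the gastrocnemius, a mostly fast-fibred calf muscle, of female wild-type NSG mice labelled as week 12 of age; NSG is an immunodeficient strain. Each mouse had received 10 tail-vein injections of about 10 µg of extracellular vesicles (EVs, membrane particles shed by cells), given 2 times a week for 5 weeks, and muscle was taken 2 days after the last. The vesicles came from MCF-10A, a non-tumorigenic human breast epithelial line (MCF-10A EV, 4 libraries), or from the human breast cancer line MDA-MB-231 (MDA-MB-231 EV, 5 libraries). Every animal in the comparison received vesicles, so it sets 1 kind of vesicle against the other and has no arm without them.

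Pyruvate dehydrogenase turns pyruvate from glycolysis into acetyl-CoA and is the gate between sugar breakdown and the TCA cycle. Pyruvate dehydrogenase kinases (Pdk) shut the complex off by phosphorylating its alpha subunit, and the phosphatases (Pdp) reverse this; in muscle the phosphatase encoded by Pdp1 is stimulated by calcium during contraction. The cycle oxidises acetyl-CoA and feeds electrons to the respiratory chain, and its enzymes are more abundant in oxidative than in glycolytic fibres.

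For 8 of the 9 genes the log2 fold change between the groups was within 0.2 of 0, as it was for 56.4% of all genes tested. Idh2, the NADP-dependent mitochondrial isocitrate dehydrogenase, was the exception. Idh2 averaged 220 CPM (counts-per-million, scaled between libraries by TMM) after MCF-10A EVs and 378 CPM after MDA-MB-231 EVs, a 1.72-fold difference with a 95% interval of 1.09 to 2.72. For the other 8 genes the log2 fold change, in MDA-MB-231 EV relative to MCF-10A EV, was between -0.13 (Idh3a) and 0.19 (Mdh2). None of the 9 passed edgeR's quasi-likelihood test at a Benjamini-Hochberg adjusted p under 0.05 over the 13901 genes tested, where 0% of all genes passed. At an unadjusted p under 0.05 there was 1 of 9, Idh2, beside 12.8% of all genes tested, 5.95% in the higher and 6.86% in the lower direction. The libraries of the groups overlapped for all 9 genes; they did not overlap for 5.4% of all genes, 2.22% with MDA-MB-231 EV higher and 3.17% with it lower. Log2 fold changes were above 0 for 6 of the 9 genes and for 53.1% of all genes, with medians of 0.039 and 0.020. With library sizes left unscaled all 9 were above 0, while the all-gene median went to 0.15. Without MCF-10A EV replicate 3 or MDA-MB-231 EV replicate 2 there were 4 of 9 above 0, and the members' median was -0.011 and -0.010.

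**Figure D1:**
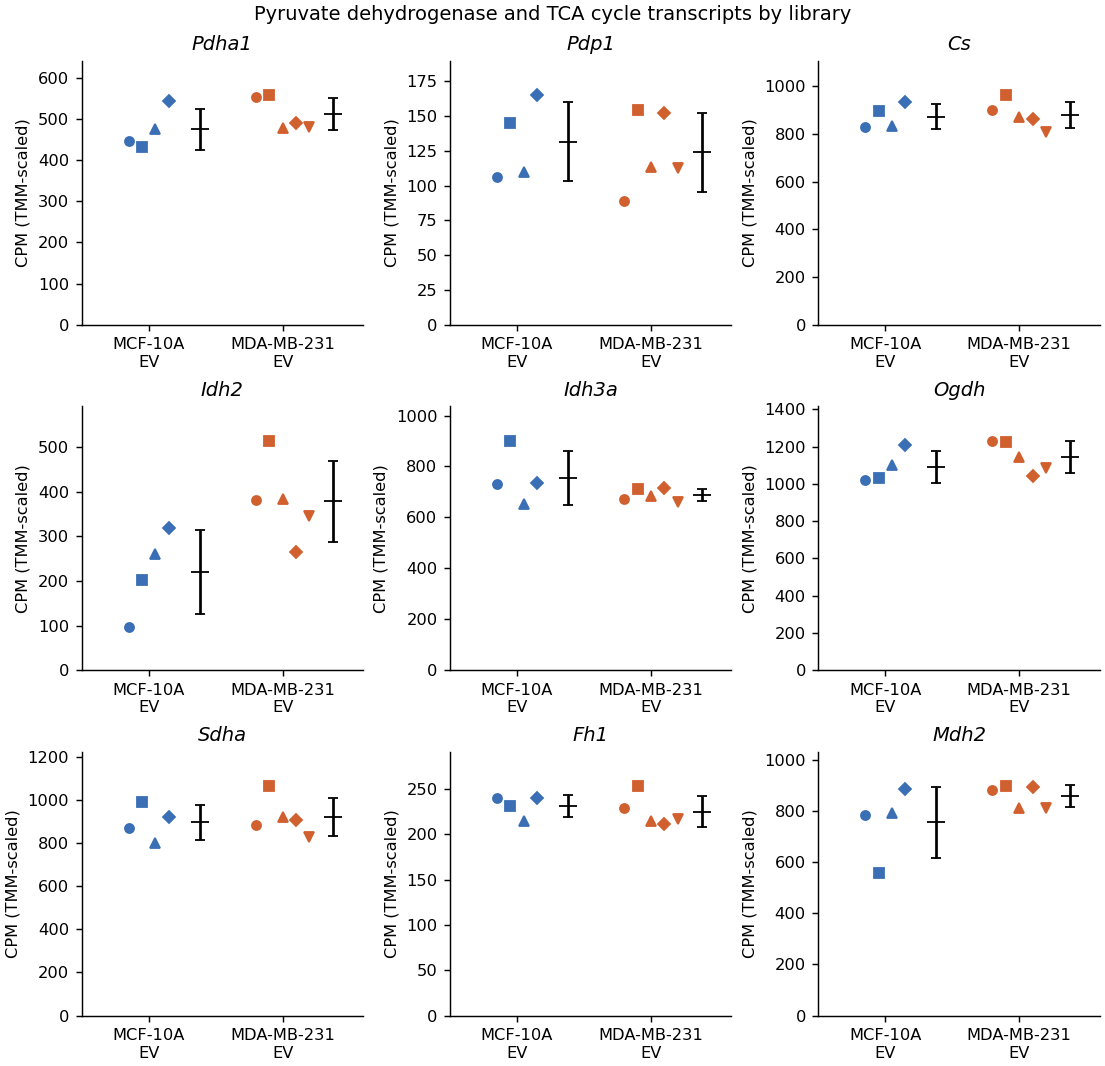
TMM-scaled CPM of the 9 genes in each library (points; marker shapes are replicates), with the group mean and SD in black (n = 4 MCF-10A EV, n = 5 MDA-MB-231 EV) and axes from 0. Idh2 spans 97.8 to 514 CPM, whereas Cs spans 810 to 962 CPM and its groups overlap throughout.

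Promoters are shown for the member that differed most between libraries, Idh2, and for Cs, which differed least. They were taken from RefSeq (GRCm38.p6), which held 7 of the 9 genes, and run from 250 bases before to 50 bases after the annotated start. Idh2 lies at chr7:80115301-80115600 on the minus strand and Cs at chr10:128337477-128337776 on the plus strand. The gene start that goes with the Cs counts, 128337832, lies beyond the end of the Cs window. Capitals mark CCAAT and GGGCGG on either strand.
Idh2: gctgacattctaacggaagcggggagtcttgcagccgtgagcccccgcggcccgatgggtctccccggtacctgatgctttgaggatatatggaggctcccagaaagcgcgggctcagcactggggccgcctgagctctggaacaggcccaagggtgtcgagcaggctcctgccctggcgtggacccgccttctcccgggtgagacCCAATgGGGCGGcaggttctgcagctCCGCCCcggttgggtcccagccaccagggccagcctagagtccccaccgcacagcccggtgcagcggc
Cs: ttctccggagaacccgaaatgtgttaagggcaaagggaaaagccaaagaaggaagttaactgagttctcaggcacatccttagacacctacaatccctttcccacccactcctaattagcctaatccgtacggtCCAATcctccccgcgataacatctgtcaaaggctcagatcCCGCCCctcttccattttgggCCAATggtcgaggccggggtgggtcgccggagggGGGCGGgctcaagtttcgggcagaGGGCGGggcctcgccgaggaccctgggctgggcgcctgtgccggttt
The Idh2 window held 1 CCAAT and 2 GGGCGG, and the Cs window 2 and 3. Among the 7 genes, 5 had CCAAT (Cs, Fh1, Idh2, Ogdh and Sdha) and 5 had GGGCGG (Cs, Fh1, Idh2, Mdh2 and Ogdh), where 37.4% and 35.7% of 32851 promoter windows had them. The oestrogen-related receptor motif TNAAGGTCA was in none of the 7 (1.28% of all windows), nor were CAGCTG (16.3%) or CCGGAAG (8.86%). The shorter AAGGTCA, part of that motif, was in Ogdh (4.72%), and TGACGTCA in Mdh2 and Ogdh (1.79%). Both strands were searched.

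The total counts ranged from 13943465 to 25195826 per library, with MCF-10A EV replicate 2 the lowest. Each of the 9 genes had at least 1779 counts in every library, so spread between mice and not counting error set the precision. The 5 muscle markers (Acta1, Ckm, Mb, Tnnt3 and Ttn) summed to 75846 to 96125 CPM after MCF-10A EVs and 76701 to 84175 CPM after MDA-MB-231 EVs, as the tissue label states. Of their log2 fold changes 1 was above 0 and 4 were below, and 0 passed. The one above 0 was Mb, in order of replicate at 768, 1583, 3412 and 3053 CPM against 4940, 5640, 3618, 3613 and 3340 CPM. The slow-fibre list of 10 markers, in which 10 of 10 had log2 fold changes above 0 and 0 passed, summed to 257 CPM in MCF-10A EV replicate 1 against 2554 to 4457 CPM in the other 3. It summed to 940 CPM in MDA-MB-231 EV replicate 4 against 2309 to 4350 CPM in the other 4. The fast-fibre list, with 9 of 9 below 0 and 0 passed, summed to 131724 to 191426 CPM against 92467 to 120395 CPM, so the groups did not overlap. None of these markers was at 0 in every library, though the fast-fibre Tnnc2 did not exceed 0.991 CPM. The 6 endothelial markers, with 5 of 6 above 0, 0 passed and none at 0, summed to 275 to 334 CPM against 336 to 460 CPM. The groups did not overlap here either, though the nearest libraries were at 334 and 336 CPM. Taken singly, 5.4% of all genes tested did not overlap between the groups. The 5 fibroblast markers, with 5 of 5 above 0 and 0 passed, summed to 1820 to 4237 CPM against 2532 to 4899 CPM. The part of these cell types in the members' values was not tested. In whole muscle, fewer fibres of a type and less RNA per fibre cannot be told apart.

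In the pyruvate dehydrogenase step, Pdha1 (ENSMUSG00000031299, mm10 chrX:160122209-160138413, minus strand) had 446, 431, 477 and 544 CPM after MCF-10A EVs (replicates 1 to 4, the order used throughout) and 554, 557, 478, 490 and 481 CPM after MDA-MB-231 EVs (replicates 1 to 5). The 3 lowest libraries were MCF-10A EV and the 2 highest were MDA-MB-231 EV, and MCF-10A EV replicate 4 lay inside the range of the other group. Its fold difference was 1.08, with a 95% interval of 0.917 to 1.27 (log2 fold change 0.11 ± 0.11, SE). The beta subunit Pdhb and the acetyltransferase core Dlat of the same complex had log2 fold changes of 0.033 ± 0.13 and -0.15 ± 0.16 (SE). Dlat was at 454 CPM in MCF-10A EV replicate 2 and between 244 and 303 CPM in the other 8 libraries.

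Pdp1 (ENSMUSG00000049225, chr4:11958184-11966452, minus strand), the calcium-stimulated phosphatase, varied between mice of the same group more than it differed between groups. It was at 106, 145, 110 and 165 CPM after MCF-10A EVs and at 88.6, 154, 113, 152 and 113 CPM after MDA-MB-231 EVs. Both groups held libraries near 110 CPM and libraries near 150 CPM, and the lowest was MDA-MB-231 EV replicate 1. The fold difference was 0.945, with a 95% interval of 0.715 to 1.25. Pdp2, the other phosphatase, was low, at 4.80 ± 2.28 CPM (SD, n = 4) against 5.97 ± 2.06 CPM (SD, n = 5).

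Among the opposing kinases, Pdk2 was steady and Pdk4, which fasting induces in muscle, varied 49.6-fold between libraries. The log2 fold change of Pdk2 was -0.17 ± 0.11 (SE), with 782 ± 91.0 CPM (SD, n = 4) against 694 ± 39.0 CPM (SD, n = 5). Pdk4 was at 22.7, 867, 589 and 909 CPM after MCF-10A EVs and at 1123, 450, 452, 231 and 460 CPM after MDA-MB-231 EVs. Its lowest library, MCF-10A EV replicate 1, had the lowest slow-fibre sum in the series, and the second lowest, MDA-MB-231 EV replicate 4, had the second lowest sum. The part of fibre content in Pdk4 was not tested. The log2 fold change of Pdk4 was -0.14 ± 0.83 (SE), and the interval of its fold difference, 0.246 to 3.37, is too wide to exclude a large change either way.

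At the entry of the cycle, Cs (ENSMUSG00000005683, chr10:128337832-128362479, plus strand) encodes citrate synthase. The activity of this enzyme, not its transcript, is commonly assayed as a measure of mitochondrial content. Cs was at 830, 896, 833 and 936 CPM after MCF-10A EVs and at 899, 962, 870, 865 and 810 CPM after MDA-MB-231 EVs. MDA-MB-231 EV libraries were both the highest and the lowest of the 9. Its fold difference was 1.01, with a 95% interval of 0.870 to 1.17. A list of 7 nuclear-encoded respiratory chain genes, with 6 of 7 above 0 and 0 passed, summed to 6487 to 8406 CPM against 6983 to 8411 CPM. Genes of the mitochondrial genome took 6.46% to 8.30% of the counts against 7.10% to 10.2%. Mitochondrial content itself was not measured.

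The isocitrate step is catalysed in mitochondria by an NAD-dependent enzyme, whose catalytic subunit is Idh3a, and by the NADP-dependent Idh2. Idh2 (ENSMUSG00000030541, chr7:80094846-80115392, minus strand) was at 97.8, 201, 260 and 319 CPM after MCF-10A EVs and at 382, 514, 384, 266 and 346 CPM after MDA-MB-231 EVs. Of the 5 MDA-MB-231 EV libraries, 4 were above every MCF-10A EV library, and replicate 4 was not. On the log2 scale the difference was 0.78 ± 0.30 (SE; unadjusted p = 0.0240, edgeR adjusted p = 0.329, DESeq2 adjusted p = 0.0956). Without MCF-10A EV replicate 1 it was 0.54 (adjusted p = 0.470), and with replicates 1 and 2 of that group both left out it was 0.38 (adjusted p = 0.641). In each group the library lowest in Idh2 was also the one with the lowest slow-fibre sum. In the other MCF-10A EV libraries the slow-fibre sum ran the opposite way. In replicates 2, 3 and 4 Idh2 was at 201, 260 and 319 CPM and that sum at 4457, 3083 and 2554 CPM. The fast-fibre sum was highest, 191426 CPM, in MCF-10A EV replicate 1, where Idh2 was lowest. It was lowest, 92467 CPM, in MDA-MB-231 EV replicate 2, where Idh2 was highest. In MCF-10A EV replicates 2, 3 and 4 the fast-fibre sum was 170190, 131724 and 148417 CPM. Over MDA-MB-231 EV replicates 1 to 5 the slow-fibre sum was 4350, 4135, 4162, 940 and 2309 CPM. The fast-fibre sum there was 101081, 92467, 117130, 120395 and 120102 CPM. Replicates 4 and 5, the lowest of that group in Idh2, were its lowest in the slow-fibre sum and its highest in the fast-fibre sum. The part of fibre content was not tested.

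Idh3a (ENSMUSG00000032279, chr9:54586511-54604661, plus strand) was at 731, 901, 651 and 737 CPM against 672, 711, 685, 716 and 659 CPM. All MDA-MB-231 EV libraries lay within the range of the MCF-10A EV libraries, whose highest was replicate 2. The fold difference was 0.912, with a 95% interval of 0.773 to 1.08. Its partner subunits Idh3b and Idh3g had log2 fold changes of 0.11 ± 0.11 and 0.16 ± 0.13 (SE), on the other side of 0 from Idh3a. The cytosolic NADP-dependent enzyme Idh1 was at 33.5 ± 4.75 CPM (SD, n = 4) against 35.1 ± 3.23 CPM (SD, n = 5).

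In the oxoglutarate and succinyl-CoA steps, Ogdh (ENSMUSG00000020456, chr11:6291633-6356642, plus strand), the first subunit of the oxoglutarate dehydrogenase complex, was at 1018, 1033, 1100 and 1208 CPM against 1231, 1226, 1142, 1042 and 1083 CPM. The 2 highest libraries were MDA-MB-231 EV and the 2 lowest were MCF-10A EV, with the others interleaved. Its fold difference was 1.05 (95% interval 0.898 to 1.23). The complex's succinyltransferase Dlst had a log2 fold change of -0.046 ± 0.12 (SE). Succinyl-CoA ligase subunits followed the same narrow range, with Suclg1 at -0.051 ± 0.093 and Sucla2, the ADP-forming subunit, at 0.12 ± 0.11 (SE).

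Sdha (ENSMUSG00000021577, chr13:74322254-74350280, minus strand), the flavoprotein of succinate dehydrogenase, which is also complex II of the respiratory chain, was at 872, 992, 802 and 920 CPM against 883, 1064, 923, 905 and 830 CPM. Replicate 2 was the highest library of each group, and replicate 3 of MCF-10A EV the lowest of all. The fold difference was 1.03 (95% interval 0.870 to 1.21), and the iron-sulfur subunit Sdhb had a log2 fold change of 0.11 ± 0.12 (SE).

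Fh1 (ENSMUSG00000026526, chr1:175600374-175625635, minus strand), which encodes fumarase, was at 241, 231, 215 and 240 CPM against 229, 253, 215, 212 and 217 CPM, a fold difference of 0.972 (95% interval 0.843 to 1.12). Its groups overlapped over most of their range. Mdh2 (ENSMUSG00000019179, chr5:135778480-135790398, plus strand), the mitochondrial malate dehydrogenase, was at 787, 557, 795 and 887 CPM against 882, 898, 812, 895 and 815 CPM. MCF-10A EV replicate 2 stood below the other 8 libraries. The fold difference was 1.14 (95% interval 0.932 to 1.39), and without that library the log2 fold change went from 0.19 to 0.063.

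**Figure D2:**
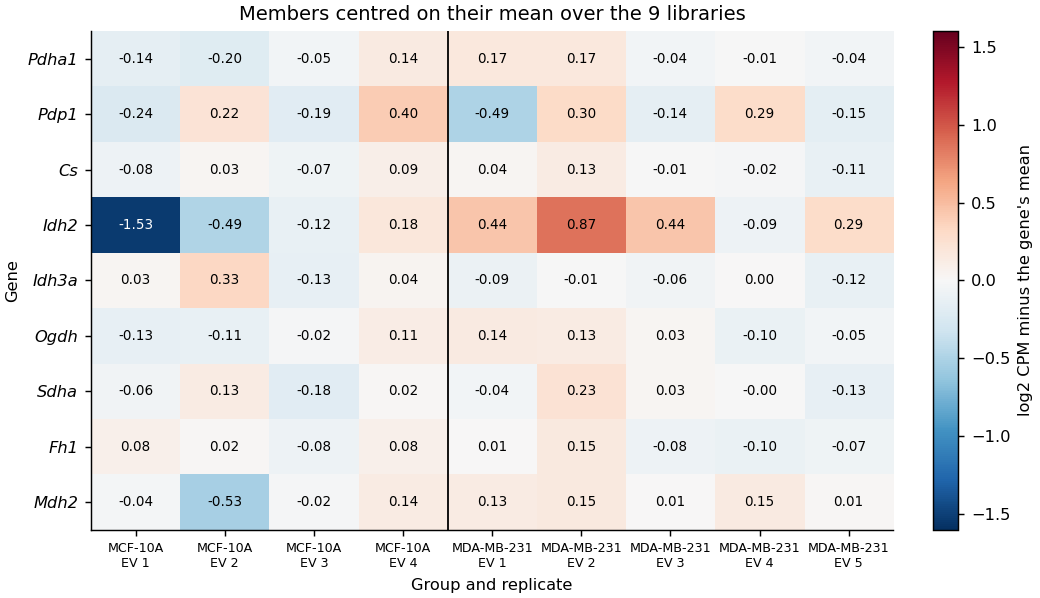
Log2 CPM of each of the 9 genes in each library minus that gene's mean over the 9 libraries (colour and printed value), with the line dividing the groups. Idh2 runs from -1.53 in MCF-10A EV replicate 1 to 0.87 in MDA-MB-231 EV replicate 2, Mdh2 is at -0.53 and Idh3a at 0.33 in MCF-10A EV replicate 2, and Cs stays between -0.11 and 0.13.

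Spread within groups set Idh2 and Pdp1 apart from the other members. The within-group coefficient of variation of CPM was 29.8% for Idh2 and 22.3% for Pdp1, beside a median of 17.8% over all genes tested. It was between 6.12% (Cs) and 12.0% (Mdh2) for the other 7. The members that moved most alike over the 9 libraries were Ogdh and Pdha1, whose centred log2 CPM differed by 0.044 on average. Cs and Fh1 differed by 0.049 and Cs and Sdha by 0.059, while Idh2 and Pdp1, the least alike, differed by 0.58.

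Per length of transcript (FPKM, counts divided by gene length and library total, unscaled between libraries), Mdh2 was the most abundant member, at 562 ± 93.5 FPKM (SD, n = 9). Sdha, Cs, Idh3a and Ogdh followed at 314, 311, 298 and 272 FPKM; neighbours in this order did not keep it in every library, Sdha being above Cs in 5 of 9, Cs above Idh3a in 7 and Idh3a above Ogdh in 7. Ogdh was above Idh2 in all 9. Idh2 and Pdha1 shared a mean of 175 FPKM, with Idh2 the higher in 4 of 9 libraries. All 4 were MDA-MB-231 EV libraries: the mean of Idh2 was 118 FPKM after MCF-10A EVs and 220 FPKM after MDA-MB-231 EVs, and it lay below Pdha1 in all 4 MCF-10A EV libraries. Fh1 was at 86.6 FPKM and Pdp1 at 30.4 FPKM, in that order in all 9 libraries.

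Ratios of members within a library do not depend on scaling between libraries, and 5 were compared with a two-sided exact permutation test over every arrangement of the 9 libraries, whose smallest possible p is 0.00794. The ratio of Idh2 to Idh3a in FPKM was 0.180, 0.300, 0.537 and 0.581 after MCF-10A EVs and 0.764, 0.971, 0.752, 0.498 and 0.704 after MDA-MB-231 EVs. It was higher in 4 of the 5 MDA-MB-231 EV libraries than in any MCF-10A EV library, and the difference in mean log2 ratio was 1.00 (exact permutation p = 0.0317, 0.159 adjusted over the 5 ratios). This ratio reuses the Idh2 values already compared above, so it gives no separate support. Ogdh to Pdha1 ran from 1.53 to 1.65 against 1.47 to 1.65, a difference in mean log2 ratio of -0.041 (adjusted p = 0.698 by the same exact permutation). Cs to Sdha ran from 0.927 to 1.06 against 0.927 to 1.04 (difference -0.026, adjusted exact permutation p = 0.698). Pdp1 to Pdha1 ran from 0.156 to 0.229 against 0.108 to 0.211 (difference -0.20, adjusted exact permutation p = 0.698).

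Pdp1 to Pdk4, the phosphatase against the inducible kinase, was 3.88 in MCF-10A EV replicate 1 and between 0.139 and 0.155 in the other 3 MCF-10A EV libraries. It was between 0.0654 and 0.547 after MDA-MB-231 EVs. The difference in mean log2 ratio was -0.66 (adjusted exact permutation p = 0.698), and without that library it was 0.52. Of the 5 ratios, 0 passed after adjustment.

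**Figure D3:**
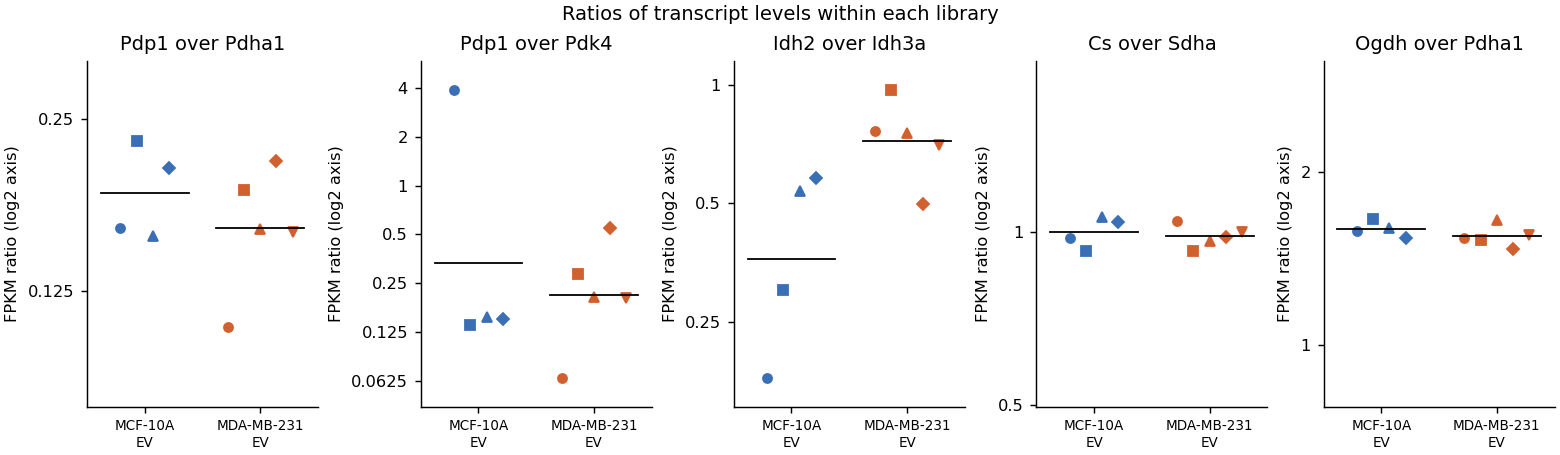
FPKM ratio of 2 transcripts within each library (points; log2 axis), with the geometric mean of each group as a line. The Idh2 to Idh3a ratio runs from 0.180 to 0.581 after MCF-10A EVs and from 0.498 to 0.971 after MDA-MB-231 EVs, while Cs to Sdha stays near 1 in all 9 libraries.

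The wider pathway was read from a list of 51 genes, all of them tested. Of these, 33 had log2 fold changes above 0 and 18 below, beside 53.1% of all genes above 0. The median was 0.042 against 0.020 for all genes, and 0 passed the adjusted test in either direction. This split moved with the processing: 43 of 51 were above 0 with unscaled library sizes, and 25 of 51, with a median of -0.0098, without MDA-MB-231 EV replicate 2. At an unadjusted p under 0.05 there were 5 higher and 1 lower, together 11.8% of the list, near the 12.8% of all genes tested (5.95% higher, 6.86% lower). Idh2, at 0.78 and counted above as a TCA cycle member, was listed here with the side reactions and cytosolic isozymes. The 17 other enzymes listed for the cycle ran from -0.13 to 0.19 with 0 at an unadjusted p under 0.05. The 14 genes of pyruvate dehydrogenase, its regulators and the mitochondrial pyruvate carrier (Mpc1 and Mpc2) ran from -0.20 to 0.34, also with 0. The genes at an unadjusted p under 0.05 were Idh2, 3 others of 13 in side reactions and cytosolic isozymes, and Sdhaf4 and Lipt2 of 7 assembly and lipoylation factors. They made up 30.8% and 28.6% of these subgroups, beside 12.8% of all genes, and the subgroups were not tested.

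**Figure D4:**
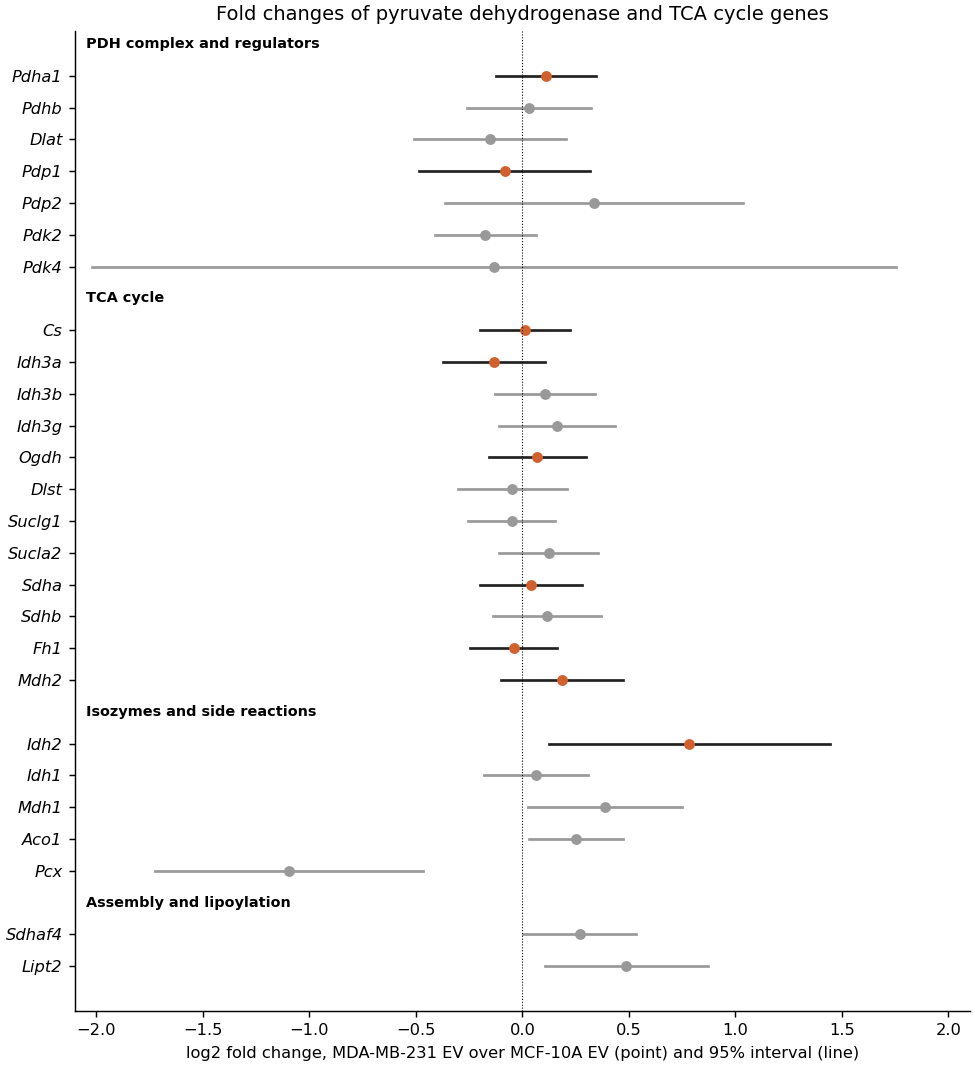
Log2 fold change, MDA-MB-231 EV relative to MCF-10A EV (points), with its 95% interval (lines) from the edgeR fit over all genes, for the 9 members (orange points) and other genes of the pathway (grey). The 12 genes drawn as cycle enzymes, without Idh2, have intervals that include 0. Idh2, drawn with the isozymes, lies at 0.78 and Pcx at -1.10, and Pdk4 has the widest interval, -2.02 to 1.75.

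Pcx, pyruvate carboxylase, which makes oxaloacetate from pyruvate to refill the cycle, differed most. It is named, with Aco1, Lipt2 and Sdhaf4, because its values were seen. Pcx was at 898, 292, 568 and 952 CPM after MCF-10A EVs and at 377, 303, 302, 251 and 351 CPM after MDA-MB-231 EVs. MCF-10A EV replicate 2 lay among the MDA-MB-231 EV libraries and the other 3 were above all of them. The log2 fold change was -1.10 ± 0.29 (SE; edgeR adjusted p = 0.260), and DESeq2, which passed 3.05% of the genes it adjusted, gave an adjusted p of 0.0104. The white adipocyte markers, 5 of 5 above 0, 0 passed and none at 0 in every library, summed to 28.8 to 110 CPM against 22.6 to 247 CPM. The highest was MDA-MB-231 EV replicate 4, where Pcx was lowest. The other libraries of that group summed to 22.6 to 64.4 CPM. The second highest of all was MCF-10A EV replicate 1, where Pcx was at 898 CPM. The islet markers, 4 of 4 above 0 and 0 passed, summed to 0.440 and 0.367 CPM in MCF-10A EV replicates 1 and 4, where Pcx was highest. They also summed to 0.425 and 0.466 CPM in replicates 2 and 5 of MDA-MB-231 EV, where Pcx was at 303 and 351 CPM. The other 5 libraries, from both groups, had 68.3 to 138 CPM. The parts of these tissues in Pcx were not tested.

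**Figure D5:**
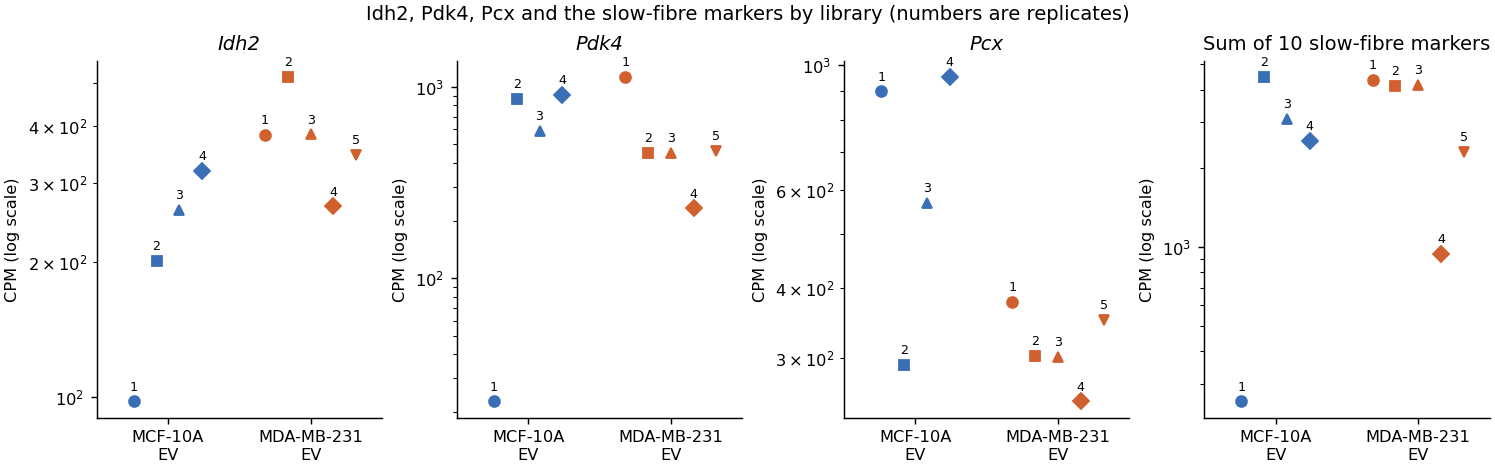
CPM of Idh2, Pdk4 and Pcx and the summed CPM of 10 slow-fibre markers in each library (log axes; numbers are replicates). MCF-10A EV replicate 1 is the lowest library for Idh2 (97.8), Pdk4 (22.7) and the slow-fibre sum (257), and is among the highest for Pcx (898).

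Mdh1, the cytosolic malate dehydrogenase of the malate-aspartate shuttle, was at 270, 427, 458 and 486 CPM against 588, 625, 519, 460 and 492 CPM. MDA-MB-231 EV replicate 4 was the only one of its group inside the MCF-10A EV range. The log2 fold change was 0.39 ± 0.17 (SE; edgeR adjusted p = 0.361), and 0.23 without MCF-10A EV replicate 1. Lipt2, a lipoyl transferase that prepares the cofactor of the pyruvate and oxoglutarate dehydrogenases, was the only gene of the 51 whose groups did not overlap, where 5.4% of all genes did not (2.22% with MDA-MB-231 EV higher). It was low, at 3.15 ± 0.626 CPM (SD, n = 4) against 4.42 ± 0.362 CPM (SD, n = 5), on 45 to 121 counts, and the log2 difference was 0.49 ± 0.18 (SE; adjusted p = 0.310 in edgeR). Aco1, the cytosolic aconitase, and Sdhaf4, an assembly factor of succinate dehydrogenase, had log2 fold changes of 0.25 ± 0.10 and 0.27 ± 0.12 (SE).

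The genes whose centred log2 CPM over the 9 libraries lay nearest the mean of the 7 TCA cycle members were Uqcrc2, Dctn5, Mmachc, Coq5 and Emc9, at average differences of 0.032 to 0.048. In that mean Idh2 had the widest spread, from -1.53 to 0.87, while Cs stayed between -0.11 and 0.13. The mean spanned 0.48 in log2 CPM, and how closely it follows Idh2 or any other member was not measured. Uqcrc2 is a core subunit of respiratory complex III and Coq5 makes coenzyme Q. For Pdp1 they were Rab3a, Itga7, Shf, Camk2b and Tsc22d4, at 0.096 to 0.12. The 5 nearest genes changed with the libraries used: without MCF-10A EV replicate 2, 1 of each 5 was still among the nearest. Without MCF-10A EV replicate 1 there were 2 of each 5, and without both there were 0.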

How the data were processed

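RNA from about 20 mg of muscle was extracted with Trizol and enriched for poly-A RNA, per the labels' protocols. The gene counts were deposited by the authors as whole reads per gene on mm10. The FPKM values, also deposited, equalled counts per gene length and library total within 0.1% for 100% of 161066 values. Per the submitters' processing notes, which give no roles, the tools were STAR 2.5, TopHat, edgeR, DESeq2 and HTSeq 0.6.1; strand and annotation release are not given in the sources used here. Of genes overlapping a member (GENCODE M21), Kmo with Fh1 and Map3k15 with Pdha1 had at most 14 and 27 counts; the paralogues Csl and Pdha2 had at most 0 and 1.

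Each numbered replicate was taken as 1 mouse; if they were not separate animals, p-values measure only spread between samples. Libraries of a group differed by more than sampling noise. Counts were tested with edgeR 4.0.16 in R 4.3.3 (filterByExpr, minimum count 10 and total 15; TMM; quasi-likelihood F-test, robust, group as the term, two-sided) and checked on simulated data. Fold changes set MDA-MB-231 EV relative to MCF-10A EV; the SE is the absolute log2 fold change over the square root of F, and 95% intervals follow from it. Alternatives included DESeq2 1.42.0 and limma 3.58.1. Named were the 9 members, 13 of 14 fixed pathway genes (the other is not reported here) and, for pattern, the 5 genes nearest each of 2 profiles by mean absolute difference in centred log2 CPM (prior count 2). Members and lists were chosen with earlier results of these data known.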

Additional observations from a re-analysis of the deposited data

Results flagged for a closer look

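Among 62 groups of 4 or 5 libraries checked for a library far from the others, 2 were flagged (3.23%), where chance flags about 1 in 20. Pdk4 was at 1123 CPM in MDA-MB-231 EV replicate 1, while the other 4 libraries of that group were at 231 to 460 CPM. The log2 ratio of Pdp1 to Pdk4 was 1.96 in MCF-10A EV replicate 1, while the other 3 libraries of that group were between -2.85 and -2.69.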

How the results depend on the processing

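No member passed an adjusted p under 0.05 under any of the alternatives run, and Idh2, Mdh2 and Pdha1 kept log2 fold changes above 0 in all 22 (0.38 to 1.02, 0.031 to 0.34 and 0.0021 to 0.25). DESeq2 called 229 genes where edgeR called 0, 1 of them in the pathway list (Pcx); leaving out 1 library gave 0 to 2 genes. The members at an unadjusted p under 0.05 numbered 2 with unscaled library sizes, 3 on log2(FPKM + 1), 3 on log2(FPKM + 0.1), 0 without both MCF-10A EV replicates 1 and 2, and 0 to 1 when 1 library was left out (0 without MCF-10A EV replicate 2 or MDA-MB-231 EV replicate 2). For the pathway list these were 10, 13, 13, 3 and 3 to 8, the lowest without MCF-10A EV replicate 1 or MDA-MB-231 EV replicate 2. Over all genes the same counts were 2262, 2424, 2399, 1304 and 1326 to 2089, against 1781. The pathway list had 46 of 51 above 0 on both FPKM scales, where the all-gene medians were 0.099 and 0.16. With MCF-10A EV replicates 1 and 2 both left out it had 25 of 51, with a median of -0.0018.

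Unscaled sizes moved the all-gene median from 0.020 to 0.15 and the pathway median from 0.042 to 0.18; on log2(FPKM + 1) and log2(FPKM + 0.1), also unscaled, the pathway median was 0.18 and 0.19. In that order, Idh3a turned to 0.0068, 0.013 and 0.013, Fh1 to 0.096, 0.092 and 0.093, Pdp1 to 0.054, 0.046 and 0.048, Dlst to 0.091, 0.098 and 0.099, and Suclg1 to 0.086, 0.082 and 0.083, all below the all-gene median of 0.15 with unscaled sizes. On the FPKM scales Dlat turned to 0.024 and 0.024 and Pdk4 to 0.66 and 0.70, and Pdk4 to 0.56 in limma voom.

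Without both MCF-10A EV replicates 1 and 2, Cs was at -0.0073, Ogdh at -0.014, Pdhb at -0.13, Dlat at 0.0035, Idh3b at -0.0063, Dlst at 0.024, Idh1 at -0.069 and the log2 ratio of Pdp1 to Pdk4 at 0.48. With 1 library left out, log2 fold changes ran from -0.013 to 0.047 for Cs, -0.012 to 0.090 for Sdha, -0.17 to 0.045 for Pdp1, -0.58 to 0.14 for Pdk4, -0.042 to 0.15 for Pdhb, -0.26 to 0.073 for Dlat, -0.11 to 0.054 for Dlst and -0.00050 to 0.16 for Idh1. The log2 ratio differences ran from -1.08 to 0.52 for Pdp1 to Pdk4 and -0.063 to 0.0033 for Cs to Sdha. The causes were not tested.

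With the replicate number as a block, 1030 genes had an unadjusted p under 0.05 against 1781, 3 pathway genes against 6, and 0 genes passed after adjustment. Libraries of the same number did not deviate together (correlations of deviations from -0.30 to 0.080). Those of different numbers had correlations from -0.22 to 0.27. The labels give no pairing by number, and these few correlations cannot settle whether the numbers pair the mice.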
